A study of Rattus norvegicus with 4 samples.

Results

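The genes described here are 9 genes of the adrenergic, angiotensin, endothelin and muscarinic receptor systems of the heart. They are Edn1 (the precursor of the peptide ligand endothelin-1), 7 receptors (Ednra and Ednrb for endothelin, Adra1a, Adra1b and Adrb1 for catecholamines, Agtr1a for angiotensin II and Chrm2 for acetylcholine) and Gnaq, the G protein subunit that several of these receptors share. Members were chosen by gene symbol, and each of the 9 had exactly 1 entry among the 15731 listed genes.

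RNA was sequenced from ventricular cardiomyocytes of wild type Wistar rats, labelled as post natal day 1. All cultures were isolated by enzymatic dissociation, plated for a short time to remove adherent cells, and then transfected with a synthetic miRNA mimic. The 4 libraries were made from cultures given 1 of 4 mimics. These were hsa-miR-106b-5p, its relative hsa-miR-93-5p, the third cluster member hsa-miR-25-3p and, as control, the worm miRNA cel-miR-67, and the libraries are named after them without prefix and arm. The labels give the mimic concentration as 25 nM in one protocol and 25 mM in another, and the RNA was harvested 72 h after transfection. Each mimic had 1 library, so no value has a replicate check, no p-value is given, and a difference between libraries cannot be told apart from a difference between cultures. How many animals contributed to a culture is not stated in the sources used here.

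All of these receptors are seven-transmembrane receptors that signal through heterotrimeric G proteins. The alpha-1 adrenergic, angiotensin type 1 and endothelin receptors couple to Gq, which activates phospholipase C, releases calcium through IP3 and activates protein kinase C, and this route is a textbook stimulus of cardiomyocyte hypertrophy. The beta-1 adrenergic receptor couples to Gs and raises cyclic AMP, which increases rate and force of contraction, and the M2 muscarinic receptor couples to Gi and opposes it.

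The mimics fall into 2 seed classes, and the mature rat sequences are shown because several comparisons are made within and between these classes. They were taken from RefSeq (GRCr8, minus strand of chromosome 12, at chr12:22157103-22157123, chr12:22156894-22156916 and chr12:22156652-22156673 in the order shown). Capitals mark the seed, bases 2 to 8.
rno-miR-106b-5p: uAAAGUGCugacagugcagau
rno-miR-93-5p: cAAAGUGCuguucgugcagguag
rno-miR-25-3p: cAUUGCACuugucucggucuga
The seed of miR-106b and miR-93 is the same 7 bases, and that of miR-25 differs. The transfected mimics carried the human names, and the sequence of cel-miR-67 was not used here.

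Levels are given as RPKM, reads scaled to gene length in kilobases and to library size, so they can be compared between genes. A fold change is the ratio of the deposited RPKM values of 2 libraries, computed without a pseudocount. A gene entered a comparison when its RPKM was above 1.0 in both libraries, and it is said to have risen or fallen when the ratio passed 1.3-fold, which is 0.38 on the log2 scale. The whole reads behind each value were recovered from the RPKM steps, and they give a 95% exact (Clopper-Pearson) interval. These intervals cover counting error only and hold nothing of the variation between cultures.

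The libraries held between 15175185 and 18797234 recovered reads on listed genes. The methods of the study state a several-fold lower number of reads per sample, and this difference was not resolved. The counting intervals rest on the recovered reads. Marker genes of the labelled cell type were abundant, with Tnnt2 (cardiac troponin T) at 2433 RPKM and all 8 cardiomyocyte markers above RPKM 1.0 in the control library. Fibroblast markers were present as well, with Col3a1 (a collagen) at 327 RPKM in the control library. The summed level of the 8 cardiomyocyte markers was 6625 RPKM with miR-106b, 6253 RPKM with miR-93, 4126 RPKM with miR-25 and 7615 RPKM in the control, and all 8 fell with miR-25 (3 of these calls, of Tnnt2, Actn2 and Pln, end when libraries are rescaled to the same sum of RPKM). The summed level of the 8 fibroblast markers was 637, 743, 317 and 821 RPKM in the same order, and 7 of them fell with miR-25 (the call of Pdgfra ends under the same rescaling). Of 8 endothelial markers 7 were listed, with summed levels from 5.75 RPKM with miR-25 to 8.56 with cel-miR-67. Cdh5 (VE-cadherin) was at most 0.402 RPKM, and only 3 were tested, which moved in both directions. Kdr, at most 2.29 RPKM, rose with all 3 mimics (log2 fold changes 0.45, 0.79 and 0.86 in the order above). Egfl7, at most 3.27 RPKM, fell with all 3 (-0.70, -1.14 and -0.93). Tek, at most 2.09 RPKM, fell with miR-106b (-0.47) and miR-25 (-1.03), and was -0.18 with miR-93. The 8 smooth muscle and pericyte markers summed to 182, 108, 352 and 154 RPKM in the order of mimics above, of which Cnn1 (calponin) made up 128, 45.6, 278 and 88.8 RPKM. The 6 macrophage markers summed to 13.7, 15.4, 7.15 and 12.7 RPKM, the 3 of 7 listed Schwann and neural markers to 4.11, 4.16, 3.86 and 2.52 RPKM, and the 4 of 5 listed pacemaker markers to 4.55, 5.31, 2.52 and 3.95 RPKM. No listed marker was at 0 in any library. The part of these marker levels in the values of the 9 members was not tested, and in such cultures fewer cells of a type and less RNA per cell cannot be told apart.

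In the control library the members spanned the range from abundant to barely detected. Chrm2 was highest at 58.4 RPKM, above 94.4% of listed genes, followed by Edn1 at 29.2, Gnaq at 15.3, Ednra at 11.9, Adra1b at 4.53, Adrb1 at 2.99, Adra1a at 2.14, Agtr1a at 1.39 and Ednrb at 0.310 RPKM. The counting intervals of Adrb1 (2.42 to 3.66 RPKM) and Adra1a (1.74 to 2.61 RPKM) overlapped in that library. That of Agtr1a (1.08 to 1.76 RPKM) overlapped the interval of Adra1a narrowly. Such overlap is not a test of a difference between neighbours in the order, and none was run. Chrm2 was the highest member and Ednrb the lowest in all 4 libraries. The positions between them moved: Edn1 and Gnaq stood level with miR-93 (21.6 and 21.7 RPKM) and again with miR-25 (14.5 and 14.8 RPKM), Adra1b and Adrb1 stood level with miR-106b and miR-93, and with miR-25 Adra1b lay below Adra1a with overlapping intervals.

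**Figure D1:**
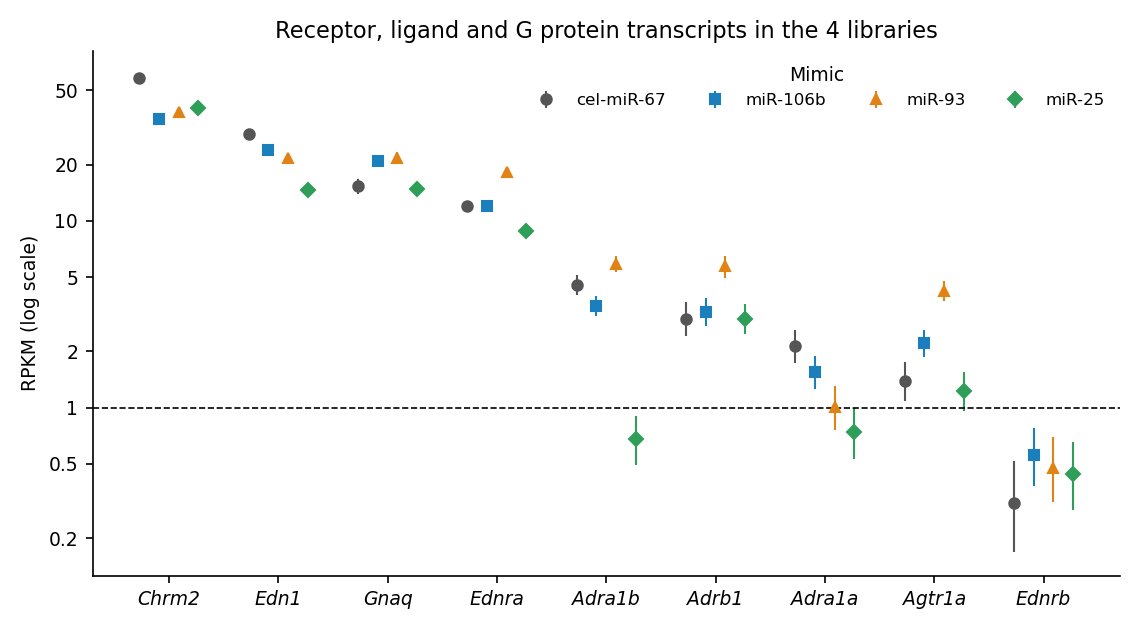
RPKM (log axis) of the 9 genes in the 4 libraries, 1 point for each library, with bars for the 95% counting interval and a dashed line at RPKM 1. Chrm2 is the highest and Ednrb the lowest in every library, and Adra1a and Adra1b lie below the line with miR-25 only.

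Against cel-miR-67, more members passed the cutoff with miR-93 than with the other mimics, and those that passed it with miR-25 were all lower. With miR-106b, 8 members were tested, of which Agtr1a and Gnaq rose and Adra1a and Chrm2 fell, against a background of 11.9% of all tested genes that rose and 12.7% that fell. With miR-93, 4 of 8 rose (Adrb1, Agtr1a, Ednra and Gnaq) and 3 fell (Edn1, Adra1a and Chrm2), against 15.1% and 15.6% of all tested genes. With miR-25, 6 were tested and Edn1, Ednra and Chrm2 fell while none rose, against 22.6% of all tested genes that fell and 19.3% that rose. The median log2 fold change of the tested members was -0.14 for miR-106b, 0.44 under miR-93 and -0.31 under miR-25, beside -0.01 or nearer to 0 for all tested genes. Over all 9 members, including those below RPKM 1.0, the medians were 0.01, 0.50 and -0.44, so the sign for miR-106b depended on the RPKM cutoff. The 3 comparisons share the control library, so a high or low control value of a gene enters all of them.

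**Figure D2:**
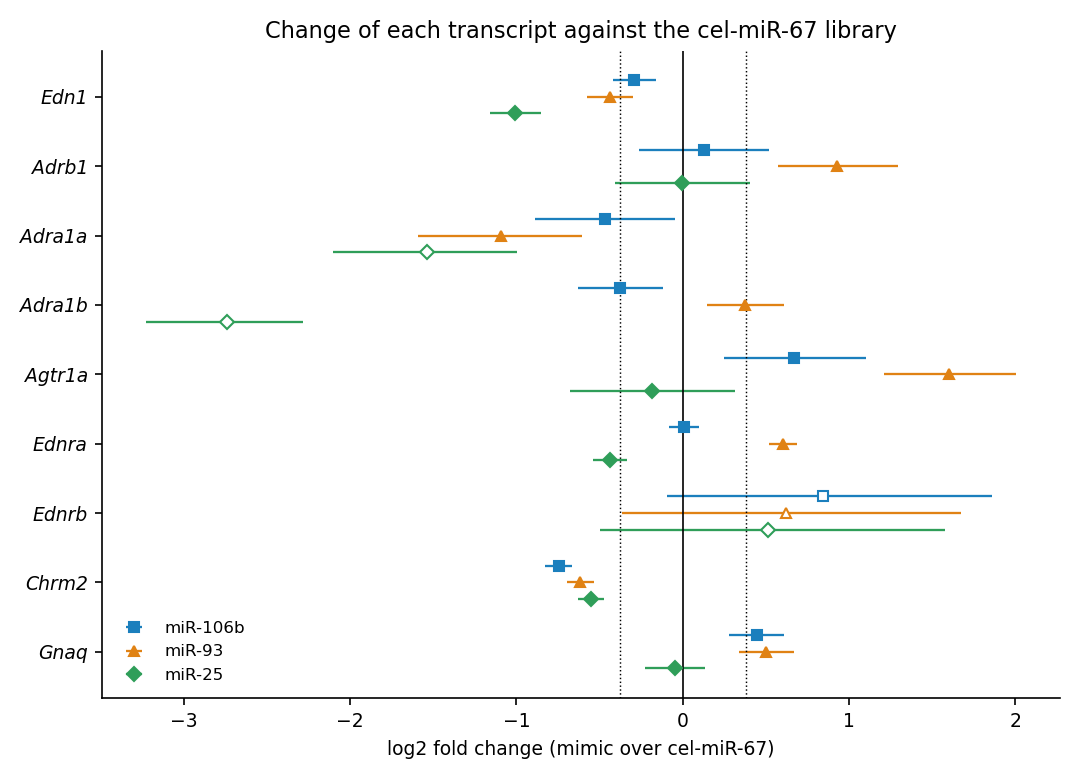
Log2 fold change of each of the 9 genes against cel-miR-67, 1 point for each mimic, with bars for the 95% counting interval, dotted lines at 1.3-fold and open symbols for genes not above RPKM 1.0 in both libraries. Chrm2 is below the lower dotted line with all 3 mimics, and the 2 mimics with the same seed lie on opposite sides of 0 for Adra1b.

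Comparing the mimics with each other leaves the control library out. From miR-106b to miR-93, which have the same seed, Adrb1, Adra1b, Agtr1a and Ednra rose and Adra1a fell among 8 tested members, against 7.30% of all tested genes that rose and 8.21% that fell. From miR-106b to miR-25, 4 of 6 fell (Edn1, Agtr1a, Ednra and Gnaq) and none rose, against 23.0% and 22.1% of all tested genes. From miR-93 to miR-25, 5 of 6 fell (the same 4 and Adrb1) and none rose, against 23.0% and 22.1% of all tested genes. The only tested member that did not fall from miR-93 to miR-25 was Chrm2. Of the 9 members, 7 had their lowest value of the 4 libraries with miR-25, and 5 had their highest with miR-93. For Adrb1, Agtr1a and Gnaq the lowest value was level with the control, and with libraries rescaled to the same sum 4 members instead of 7 were lowest with miR-25, while 5 were again highest with miR-93.

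**Figure D3:**
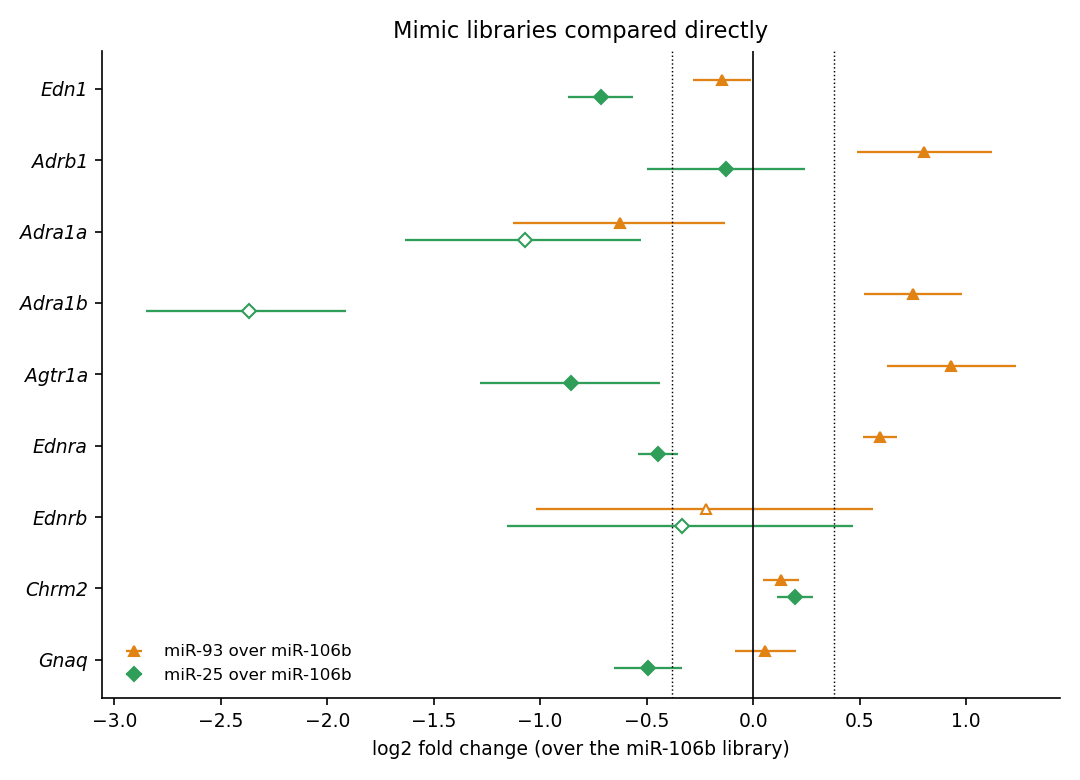
Log2 fold change of each of the 9 genes with miR-93 and with miR-25 over the miR-106b library. Bars show the 95% counting interval, dotted lines 1.3-fold, and open symbols genes not above RPKM 1.0 in both libraries. From miR-106b to miR-25 the tested genes Edn1, Agtr1a, Ednra and Gnaq lie below the lower dotted line.

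The split into higher and lower calls depends on how libraries are scaled to each other. With RPKM rescaled to the same sum in each library, all log2 fold changes against cel-miR-67 move up, by 0.03 for miR-106b, by 0.15 for miR-93 and by 0.24 for miR-25. The share of called genes that rose then goes from 49.2% to 72.3% for miR-93 and from 46.1% to 73.9% for miR-25. Between mimics it goes from 47.1% to 72.5% for miR-93 over miR-106b, from 49.0% to 71.2% for miR-25 over miR-106b and from 49.0% to 59.1% for miR-25 over miR-93. Members and named pathway genes whose call against cel-miR-67 ends under that scaling are given with their values where they are described.

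Edn1 (ENSRNOG00000014361), the gene of the only ligand in the set, encodes a vasoconstrictor peptide that cardiomyocytes, fibroblasts and endothelial cells can make. It stood at 23.9 RPKM (987 reads) with miR-106b, 21.6 RPKM (819 reads) with miR-93, 14.5 RPKM (551 reads) with miR-25 and 29.2 RPKM (920 reads) with cel-miR-67. All 3 mimics gave a lower level than the control, and miR-25 gave the lowest. With miR-25 Edn1 fell 2.01-fold (interval of the log2 fold change -1.16 to -0.85), and with miR-93 it fell 1.35-fold (log2 fold change -0.44, interval -0.57 to -0.30). With miR-106b the log2 fold change was -0.29 (-0.42 to -0.16), which did not reach the fold-change cutoff although its interval left out 0. The fall with miR-25 was also present against miR-106b (-0.71) and against miR-93 (-0.57). With libraries rescaled to the same sum the value with miR-93 was -0.29 and no longer past the cutoff, and that with miR-25 was -0.77. Ece1, the enzyme that cleaves the precursor to the active peptide, stood at 7.11, 6.43, 8.15 and 8.53 RPKM in the same order and fell with miR-93 only (log2 fold change -0.41, not past the cutoff when rescaled to the same sum, -0.26, or upper quartile, -0.37).

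Promoter sequence was on hand for 8 of the 9 members, all but Adra1a, from RefSeq (GRCr8). In the 250 bases before each annotated start, 5 motifs were searched on both strands, and the share of 33469 promoters that hold each is given for scale. TATAAA was found in Edn1 and Agtr1a and in 12.9% of all promoters, AGATAA (the GATA motif) in Edn1 and in 10.3%, and TGACTNA (the AP-1 motif) in Edn1 and in 11.5%. TGACGTCA (the full cyclic AMP response element, in 1.59% of all) and CACGTG (a form of the E-box, in 5.59%) were found in none of the 8. Other forms of the 5 motifs were not searched. The Edn1 promoter is shown because it holds 3 of the motifs, the Agtr1a promoter because it is the other one with TATAAA, and capitals mark the matches. For Edn1 they lie 214 to 209 (GATA, on the opposite strand), 186 to 180 (AP-1) and 110 to 105 bases (TATA) before the RefSeq start, and for Agtr1a 45 to 40 bases before it. A match describes the letters only, and no binding was measured here.
Edn1, chr17:22666788-22666937, minus strand: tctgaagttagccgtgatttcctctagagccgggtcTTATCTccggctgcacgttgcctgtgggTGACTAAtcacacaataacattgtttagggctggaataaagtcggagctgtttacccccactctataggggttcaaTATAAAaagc
Agtr1a, chr17:34435433-34435582, minus strand: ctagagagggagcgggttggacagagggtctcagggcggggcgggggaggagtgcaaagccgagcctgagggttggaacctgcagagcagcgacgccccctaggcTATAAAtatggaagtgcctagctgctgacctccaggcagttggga

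Of the endothelin receptors, Ednra (ENSRNOG00000012721) was the abundant one. The type A receptor, which couples to Gq in cardiomyocytes, stood at 12.0 RPKM (2309 reads) with miR-106b, 18.2 RPKM (3205 reads) with miR-93, 8.82 RPKM (1553 reads) with miR-25 and 11.9 RPKM (1749 reads) with cel-miR-67. The miR-106b and control libraries were level, miR-93 was above both and miR-25 below both. Ednra rose with miR-93 (log2 fold change 0.61, interval 0.52 to 0.69) and fell with miR-25 (-0.44, -0.54 to -0.34), while with miR-106b it was 0.01 (-0.08 to 0.10). From miR-93 to miR-25 it fell by 1.04 on the log2 scale (interval -1.13 to -0.95). With libraries rescaled to the same sum, the value with miR-25 was -0.20 against the control and -0.24 against miR-106b, neither past the cutoff, and that with miR-93 was 0.75.

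Ednrb (ENSRNOG00000010997), the type B receptor, is known from endothelial cells and from neural crest derivatives. It was below RPKM 1.0 in all 4 libraries, at 0.556 RPKM (33 reads) with miR-106b, 0.477 RPKM (26 reads) with miR-93, 0.442 RPKM (24 reads) with miR-25 and 0.310 RPKM (14 reads) with cel-miR-67. The 3 mimic libraries were above the control, but the interval of each log2 fold change held 0, the highest being 0.85 (-0.10 to 1.86) with miR-106b, and a difference was not detectable at this depth. Per length, Ednra was 38.5 times as abundant as Ednrb in the control library, 38.0 times for miR-93, 21.6 times for miR-106b and 20.0 times for miR-25, ratios that rest on few Ednrb reads.

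The alpha-1 adrenergic receptors, which bind noradrenaline and adrenaline and couple to Gq, held the widest spread of the set. Adra1b (ENSRNOG00000060087) stood at 3.49 RPKM (259 reads) with miR-106b, 5.87 RPKM (400 reads) with miR-93, 0.677 RPKM (46 reads) with miR-25 and 4.53 RPKM (256 reads) with cel-miR-67. The highest library was 8.68-fold above the lowest, and the miR-25 library stood apart from the other 3. Because Adra1b was below RPKM 1.0 with miR-25, it was not counted as having fallen there, but its log2 fold change against the control was -2.74 and its interval ran from -3.23 to -2.28. Against miR-93 and miR-106b the same library gave -3.12 (-3.59 to -2.67) and -2.37 (-2.85 to -1.91). Adra1b was also the member nearest to the fold-change cutoff: its values of -0.37 (-0.63 to -0.12) with miR-106b and 0.38 (0.15 to 0.61) with miR-93 both lay just inside it, and from miR-106b to miR-93 it rose (0.75, 0.52 to 0.98). Rescaling to the same sum or to the same upper quartile put the value with miR-93 past the cutoff, at 0.52 and 0.42.

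Adra1a (ENSRNOG00000009522) stood at 1.55 RPKM (94 reads) with miR-106b, 1.01 RPKM (56 reads) with miR-93, 0.738 RPKM (41 reads) with miR-25 and 2.14 RPKM (99 reads) with cel-miR-67. The control was highest and the 3 mimics were lower. Adra1a fell with miR-106b (log2 fold change -0.47, interval -0.89 to -0.04) and with miR-93 (-1.09, -1.59 to -0.60). With miR-25 its log2 fold change was -1.54, its interval, which reached down to -2.10, left out 0, and the gene was below RPKM 1.0. It was the only member that fell from miR-106b to miR-93 (-0.62, -1.13 to -0.13). These reads are few, and with an RPKM cutoff of 2.0, or with a pseudocount of 1 for miR-106b (-0.30), Adra1a would not be called.

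Adra1d, the remaining alpha-1 receptor, is not one of the 9 genes but is needed for the family's total. It stood at 2.45, 4.80, 0.934 and 2.77 RPKM in the same order of libraries, and rose with miR-93 (log2 fold change 0.79, interval 0.54 to 1.05). With miR-25 its log2 fold change was -1.57 (-1.97 to -1.17), below RPKM 1.0. The 3 alpha-1 receptors together came to 7.49 RPKM with miR-106b, 11.7 RPKM with miR-93, 2.35 RPKM with miR-25 and 9.44 RPKM with cel-miR-67, from 568, 842, 162 and 540 reads. The total was 4.02-fold lower with miR-25 than with the control (log2 fold change -2.01), and all 3 receptors were below RPKM 1.0 in that library and in no other. Adra1b made up 48.0% of the total in the control library, 46.6% under miR-106b, 50.3% under miR-93 and 28.8% under miR-25. With miR-93 the subtypes parted, since Adra1d rose and Adra1a fell.

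**Figure D4:**
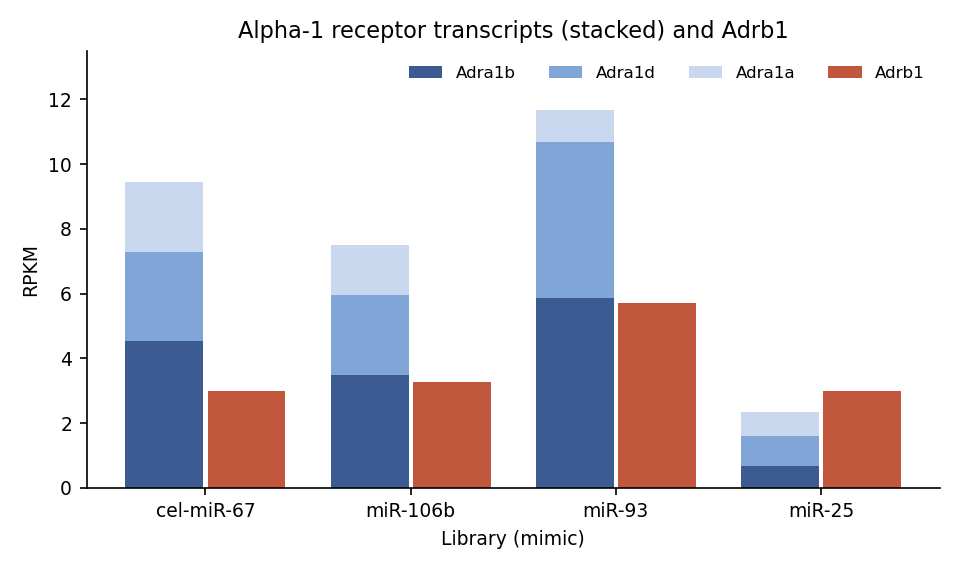
RPKM of the 3 alpha-1 adrenergic receptors in each library, stacked so that the height of the stacked bar is their total, with a separate bar for Adrb1 beside it. The axis starts at 0. The alpha-1 total is 2.35 RPKM with miR-25 and between 7.49 and 11.7 RPKM in the other 3 libraries.

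Adrb1 (ENSRNOG00000017002), the main beta adrenergic receptor of cardiomyocytes, stood at 3.26 RPKM (136 reads) with miR-106b, 5.70 RPKM (218 reads) with miR-93, 2.99 RPKM (114 reads) with miR-25 and 2.99 RPKM (95 reads) with cel-miR-67. The miR-93 library was high and the other 3 were level. Adrb1 rose 1.90-fold with miR-93 (log2 fold change 0.93, interval 0.58 to 1.29), also against miR-106b (0.80, 0.49 to 1.12), and fell from miR-93 to miR-25 (-0.93, -1.27 to -0.60). With miR-106b it was 0.13 (-0.26 to 0.52), and with miR-25 its interval ran from -0.41 to 0.41. Per length, the 3 alpha-1 receptors together were 3.16 times as abundant as Adrb1 in the control library, and the same ratio was 2.30 under miR-106b, 2.05 under miR-93 and 0.787 under miR-25.

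Agtr1a (ENSRNOG00000018346), the angiotensin II type 1a receptor and a Gq-coupled receptor, stood at 2.22 RPKM (144 reads) with miR-106b, 4.23 RPKM (252 reads) with miR-93, 1.23 RPKM (73 reads) with miR-25 and 1.39 RPKM (69 reads) with cel-miR-67. The miR-93 library was highest, miR-106b intermediate, and miR-25 and the control were level. Agtr1a rose with miR-93 (log2 fold change 1.60, interval 1.21 to 2.01), the largest change of a tested member against the control, and with miR-106b (0.67, 0.25 to 1.11). With miR-25 it was -0.18 (-0.68 to 0.31), and from miR-93 to miR-25 it fell by 1.78 on the log2 scale. Because the control level was 1.39 RPKM, these rises would not be called with an RPKM cutoff of 2.0. Rats carry a near-identical second type 1 receptor gene, Agtr1b, which had no entry under that symbol among the listed genes. How reads shared by both were assigned is not given in the sources used here, so the level of Agtr1a is uncertain in that respect. Agtrap, a protein that binds the type 1 receptor and promotes its internalisation, stood at 2.59, 2.77, 5.23 and 2.61 RPKM and rose with miR-25 (1.00, 0.76 to 1.24).

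Chrm2 (ENSRNOG00000046972), the M2 muscarinic receptor through which the vagus nerve slows the heart, stood at 34.8 RPKM (2270 reads) with miR-106b, 38.1 RPKM (2282 reads) with miR-93, 39.9 RPKM (2383 reads) with miR-25 and 58.4 RPKM (2900 reads) with cel-miR-67. It was lower with every mimic than with the control, and the 3 mimic libraries were close to each other. Chrm2 fell with miR-106b (log2 fold change -0.75, interval -0.83 to -0.67), miR-93 (-0.61, interval -0.69 to -0.53) and miR-25 (-0.55, -0.63 to -0.47). Among members tested in all 3 comparisons it was the only one that fell in each. Adra1a, which also fell with miR-106b and miR-93, was not tested with miR-25, where its log2 fold change was -1.54. The 3 comparisons share the control library, and between mimics no pair passed the cutoff for Chrm2, with log2 fold changes of 0.13, 0.20 and 0.07. With libraries rescaled to the same sum, the value with miR-25 was -0.31 and not past the cutoff, and from miR-106b to miR-25 Chrm2 would rise (0.40). The M3 and M5 receptors Chrm3 and Chrm5 stood at no more than 0.292 and 0.061 RPKM, and Chrm5 was listed at 0 in the control library.

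Gnaq (ENSRNOG00000014183), the Gq alpha subunit, stood at 20.8 RPKM (836 reads) with miR-106b, 21.7 RPKM (799 reads) with miR-93, 14.8 RPKM (544 reads) with miR-25 and 15.3 RPKM (468 reads) with cel-miR-67. The 2 mimics with the shared seed were high, and miR-25 and the control were level. Gnaq rose with miR-106b (log2 fold change 0.45, interval 0.28 to 0.61) and with miR-93 (0.50, interval 0.34 to 0.67), and with miR-25 it was -0.05 (-0.23 to 0.13). From miR-106b and from miR-93 to miR-25 it fell by 0.49 and 0.55, and between miR-106b and miR-93 it differed by 0.06 (-0.08 to 0.20). With libraries rescaled to the same sum, the value from miR-106b to miR-25 was -0.29 and not past the cutoff. Gna11, the other Gq-family subunit that these receptors use, stood at 13.0, 14.4, 12.8 and 12.1 RPKM and passed the cutoff with no mimic (with miR-93 it would when rescaled to the same sum, at 0.40), and Gnaq was between 1.15 and 1.61 times as abundant.

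Several other receptors of these families stayed under RPKM 1.0 in every library. Among them were Adra2a, Adra2b and Mas1, at no more than 0.158, 0.335 and 0.331 RPKM, and the muscarinic genes given above. Of the angiotensin system, Agt (angiotensinogen) and Ace (the enzyme that forms angiotensin II) were at no more than 0.304 and 0.134 RPKM.

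A list of 90 other genes of the same pathways was read by role. With miR-106b 8 rose and 12 fell of 65 tested (11.9% and 12.7% of all tested genes did), with miR-93 14 rose and 12 fell of 63 (15.1% and 15.6%), and with miR-25 17 rose and 15 fell of 63 (19.3% and 22.6%). Nothing particular to the list or to its roles is read from these counts. With libraries rescaled to the same sum, the counts with miR-25 become 27 and 9, so the balance of rises and falls in the list and its roles depends on the scaling. The list's median log2 fold changes were -0.05, 0.03 and 0.07. The genes named next are those with the highest and the lowest log2 fold change of each role and mimic.

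Among 15 tested G protein subunits, 2 rose and 4 fell with miR-106b, 3 rose and 5 fell with miR-93, and 6 rose and 1 fell with miR-25. Gna13, an alpha subunit, rose with all 3 mimics (log2 fold changes 0.48, 0.54 and 0.50). Gnb5, the beta subunit that pairs with a class of RGS proteins, fell with miR-106b (-1.32) and miR-93 (-1.17) and rose with miR-25 (0.61), standing at 3.47, 3.88, 13.3 and 8.70 RPKM. Gng12, a gamma subunit, fell with miR-106b (-0.41) and miR-93 (-0.48) and rose with miR-25 (0.88), and Gnao1, an inhibitory alpha subunit, fell with miR-93 (-0.90) and miR-25 (-0.56). Rescaled to the same sum, both falls of Gng12 (-0.37 and -0.34) and that of Gnao1 with miR-25 (-0.32) were not past the cutoff.

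In the phospholipase C arm, of 9 tested genes 2 rose and 1 fell with miR-106b, 2 rose and 1 fell with miR-93, and 2 rose and 3 fell with miR-25. Prkce, a protein kinase C isoform, rose with miR-106b (0.81) and miR-93 (0.93), and was -0.36 with miR-25. Of the phospholipases C, Plcb4 fell with miR-106b (-0.44), Plce1 fell with miR-93 (-0.39) and miR-25 (-0.73), and Plcb3 rose with miR-25 (0.53). The value of Plce1 with miR-93 was -0.25 when rescaled to the same sum and -0.35 when rescaled to the same upper quartile, neither past the cutoff.

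In the cyclic AMP arm, none rose and 3 of 16 fell with miR-106b, 2 rose and 2 fell of 15 with miR-93, and 3 rose and 5 fell of 16 with miR-25. Adcy5, a main adenylyl cyclase of the heart, rose with miR-93 (0.60) and fell with miR-25 (-0.48). Pde8a, a phosphodiesterase that degrades cyclic AMP, fell with all 3 mimics (-0.54, -0.53 and -0.78). Of the proteins that anchor protein kinase A, Akap6 fell with miR-106b (-0.39) and miR-93 (-0.75), and Akap5 rose with miR-25 (1.29). Prkar1a, a regulatory subunit of that kinase, was the highest of the arm with miR-106b at 0.28, under the cutoff, and rose with miR-93 (0.41). Rescaled to the same sum, the falls of Adcy5 with miR-25 (-0.24) and of Akap6 with miR-106b (-0.36) were not past the cutoff, and Prkar1a would also rise with miR-25 (0.47).

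The genes that switch receptors and G proteins off moved in both directions. Of 12 tested with miR-106b 4 rose and 3 fell, and of 11 tested with each of the others 4 rose and 2 fell with miR-93 and 3 rose and 5 fell with miR-25. Rgs2, an RGS protein that acts on Gq, stood at 63.2 RPKM with miR-106b, 59.0 RPKM with miR-93, 51.7 RPKM with miR-25 and 26.3 RPKM with cel-miR-67, and rose with all 3 (log2 fold changes 1.26, 1.16 and 0.97). Rgs4 fell with miR-106b (-0.69) and miR-93 (-0.72) and rose with miR-25 (1.00), and Rgs5 rose with miR-25 (1.58) and fell with miR-106b (-0.46, with an interval of -1.14 to 0.20 that held 0). Grk5, a kinase that desensitises receptors, fell with all 3, and most with miR-25 (-0.46, -0.43 and -1.36), though the value with miR-93 was -0.28 and not past the cutoff when rescaled to the same sum. Rgs6, named after its values were seen, stood at 2.81, 3.63, 0.280 and 2.45 RPKM, and with miR-25, where it was below RPKM 1.0, its log2 fold change was -3.13 (-3.58 to -2.71).

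Among 10 tested genes of the calcium and calcineurin arm, which carries Gq signals to transcription, none rose and 1 fell with miR-106b, and 2 rose and 1 fell with each of miR-93 and miR-25. Rcan1, an inhibitor of calcineurin that calcineurin itself induces, stood at 75.8 RPKM with miR-106b, 31.4 RPKM with miR-93, 122 RPKM with miR-25 and 158 RPKM with cel-miR-67. It fell with miR-106b (-1.06) and miR-93 (-2.33), and with miR-25 it was -0.37, just inside the cutoff. Its relative Rcan2 fell with miR-25 (-0.95). Camk2g, a calmodulin-dependent kinase, rose with miR-25 (0.66), and the histone deacetylase gene Hdac9 rose with miR-93 (0.62) and was the highest of the arm with miR-106b at 0.14, under the cutoff.

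**Figure D5:**
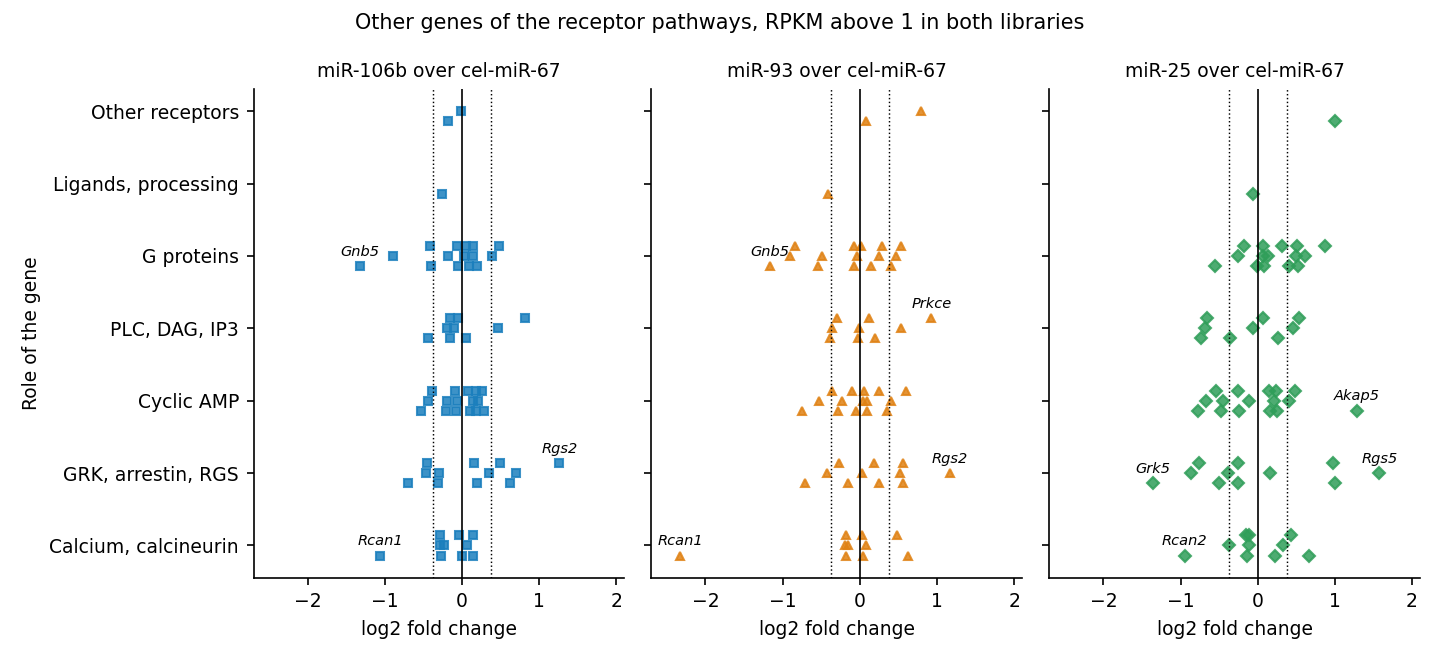
Log2 fold change against cel-miR-67 of the other pathway genes, grouped by role, 1 point for each gene tested with each mimic, with dotted lines at 1.3-fold. The genes that switch receptors off include Rgs2 above 0 with all 3 mimics and Grk5 below 0 with all 3.

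To place the members among all genes, those with the most similar set of 3 log2 fold changes against the control were sought among genes above RPKM 10 in all 4 libraries (4045 genes, or 4044 for Edn1). Likeness was the Euclidean distance of the 3 values on the log2 scale, a description over 4 libraries. Nearest to Ednra were Sgca at 0.08, Gpc4 at 0.11 and Ptp4a3 at 0.15, and nearest to Edn1 were Ndufaf4 at 0.08, Sgcd at 0.09 and Bloc1s1 at 0.13. For Agtr1a the nearest gene lay at 0.61, so none of the genes searched had a pattern as close. Agtr1a itself was at most 4.23 RPKM, and genes of its own level were not searched. Its log2 fold changes also have wide counting intervals, such as 1.21 to 2.01 with miR-93, so this distance does not set its pattern apart.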

How the data were processed

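RNA-seq libraries of 4 rat cardiomyocyte cultures, 1 for each mimic, were analysed. As the methods state, the authors checked reads with FASTQC, trimmed them with Cutadapt, aligned them to Rnor 6.0 with STAR (version 2.7 per the labels), rounded gene counts and computed RPKM with edgeR's rpkm function, and they deposited the RPKM values. The counting program and strand setting are not given in the sources used here.

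Values were not counts, so no count test was run. Whole reads were recovered for all 15731 genes as the least whole numbers in the ratios of a gene's RPKM values that also give a whole gene length (tolerance 1e-09). For 654 genes a common factor was multiplied back. The recovered library sizes are not whole numbers, so the authors' divisor may be a scaled size. In tests on simulated data, most but not all genes had their reads recovered exactly.

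Cutoffs were RPKM 1.0 and 1.3-fold. The members and lists were chosen with earlier results of these data known. Of 105 pathway names, some of them synonyms, 90 had exactly 1 entry. Genes named were the members, the other receptors, the highest and lowest gene of each role and mimic, and the 3 nearest patterns of the 3 members with the widest range among those above RPKM 1.0 in all libraries. Gna11, Agt, Ace, Rgs6 and Adrbk1 fall outside this rule and were chosen after their values were seen. Some genes this rule selects, including 3 for Agtr1a, are not reported here. RefSeq tables (GRCr8) gave the sequences and held a promoter, matched by symbol, for 8 of the 9 members. Alternatives were other RPKM and fold cutoffs, intervals past 1, pseudocounts of 0.1 and 1, and 3 scalings. Tables were read with pandas 2.3.3 in Python 3.11.15, intervals used scipy 1.17.1 and numpy 2.4.6, and plots used matplotlib 3.10.9.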

Additional observations from a re-analysis of the deposited data

How the results depend on the processing

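No paired analysis was possible because each mimic had 1 library, and for the same reason no replicate could be left out. Depth limits most Ednrb, with 33 reads or fewer in each library, Adra1a, with 99 or fewer, and the miR-25 value of Adra1b, with 46. No log2 fold change that was called changed sign under the alternatives run. Of the other counts, 154 stayed within 1.5 times, and of the members' log2 fold changes 125 stayed within their counting interval and 10 did not. The cause was not tested where the setting itself does not give it.

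In each pair below the count that rose comes first. With an RPKM cutoff of 2.0, members with miR-106b numbered 1 and 1, and 0 fell from miR-106b to miR-93. Of all genes tested at that cutoff, 1065 rose and 1172 fell with miR-106b, and 770 fell from miR-106b to miR-93. With RPKM above 1.0 in either library, 5 members fell with miR-25 (Adra1a and Adra1b joined), as did 2852 of 11918 genes. With no RPKM cutoff, members with miR-25 numbered 1 and 5, pathway genes with miR-106b 14 and 24, and 25 pathway genes fell with miR-93 and 27 with miR-25. At 1.5-fold, members with miR-106b numbered 1 and 1, 1 fell with miR-25, 2 fell from miR-106b to miR-25 and 3 from miR-93 to miR-25, and pathway genes numbered 4 and 4 with miR-106b, then 5 and 6 under miR-93, then 8 and 9 under miR-25. At 2-fold, members numbered 0 and 0 with miR-106b and 1 and 1 with miR-93, 1 fell with miR-25, 0 and 0 changed from miR-106b to miR-93, 0 fell from miR-106b to miR-25 and 2 from miR-93 to miR-25, and pathway genes numbered 1 and 2, 1 and 2, and 3 and 1. With a pseudocount of 1, 1 member and 6 pathway genes fell with miR-106b, and 0 members fell from miR-106b to miR-93. Over all tested genes 1095 and 723 fell in these comparisons. With libraries rescaled to the same sum of RPKM, 1 member fell with miR-25 (Edn1), 1 rose and 2 fell from miR-106b to miR-25, and pathway genes with miR-25 numbered 27 and 9.

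Over all tested genes, the counts moved past 1.5 times with the fold cutoff (588 and 647, 781 and 942, and 1189 and 1538 at 1.5-fold, and 139 and 150, 192 and 289, and 360 and 561 at 2-fold for the 3 mimics in the order above), beside 1339 and 1437, 1707 and 1762, and 2166 and 2532 at 1.3-fold. Without an RPKM cutoff they were 2785 and 2935, 3249 and 3080, and 3712 and 4032. Rescaled to the same sum they were 2839 and 1086 under miR-93 and 4087 and 1441 under miR-25. From miR-106b to miR-93 the counts were 831 and 935 at 1.3-fold, 287 and 411 at 1.5-fold, and 31 and 88 at 2-fold. From miR-106b to miR-25 they were 2473 and 2574, then 1441 and 1620, then 468 and 692. From miR-93 to miR-25 they were 2473 and 2571, then 1487 and 1596, then 552 and 669. Rescaled to the same sum, 4034 rose and 1634 fell from miR-106b to miR-25.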

Other observations

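Dbh, the enzyme that makes noradrenaline from dopamine, supplies the ligand of the adrenergic receptors and was listed among the Schwann and neural markers. It stood at 2.23 RPKM (181 reads) with miR-106b, 2.59 RPKM (193 reads) with miR-93, 2.97 RPKM (221 reads) with miR-25 and 0.985 RPKM (61 reads) with cel-miR-67. All 3 mimic libraries were above the control, with log2 fold changes of 1.18 (interval 0.75 to 1.62), then 1.39 (interval 0.97 to 1.83) and 1.59 (interval 1.18 to 2.03). The control value was just under RPKM 1.0, so the gene was not tested. The part of neural or other cells in these values was not tested, and Sox10, a defining Schwann cell marker, was at most 0.073 RPKM.

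Adrbk1, the gene of the receptor kinase GRK2, was singled out after its values were seen. It stood at 12.0 RPKM with miR-106b, 12.2 RPKM with miR-93, 8.07 RPKM with miR-25 and 14.7 RPKM with cel-miR-67, and it fell with miR-25 (log2 fold change -0.86, interval -1.02 to -0.70). With miR-106b and miR-93 the log2 fold changes were -0.29 and -0.27, inside the cutoff.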
